A study of Mus musculus with 6 samples.

Results

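Heat shock proteins and chaperones were followed as 10 genes chosen by name: Hspa1a, Hspa1b, Hspa8, Hspa5, Hspa9, Hsp90aa1, Hsp90ab1, Hspd1, Hspe1 and Dnajb1. All 10 were found among the 23574 genes of the count tables. The series holds RNA-seq of blood-forming stem cells from C57BL/6 mice, with 3 libraries from HLF KO animals (the gene of hepatic leukaemia factor, a PAR bZIP transcription factor, is knocked out) and 3 from wild-type (WT) littermates. Each library was made from total RNA of 3000 cells, sorted fresh as negative for lineage markers, CD34 and Flt3 and positive for Sca-1 and c-Kit. Neither the age of the mice, the part of Hlf removed, nor whether each library came from its own animal is given in the sources used here, so a p-value here reflects how far the 6 libraries scatter, and that scatter may be technical.

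Heat shock proteins are molecular chaperones: they bind unfolded or newly made proteins and let them fold without clumping. Hsp70 proteins hold short exposed stretches with the help of J-domain partners, Hsp90 finishes kinases and receptors, Hsp60 and Hsp10 form a closed chamber in mitochondria, and BiP works in the endoplasmic reticulum. Some of these genes run at a high level in every cell, while others are switched on by heat shock factor 1 (HSF1) within minutes of heat, toxic agents or rough handling, through heat shock elements in their promoters. Haematopoietic stem cells are known for a low rate of protein synthesis, and the sorting that isolates them is itself a form of handling. The 10 genes were therefore split into 4 inducible ones (Hspa1a, Hspa1b, Dnajb1, Hsp90aa1) and 6 constitutive ones (Hspa8, Hspa5, Hspa9, Hsp90ab1, Hspd1, Hspe1).

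Promoters are shown for the stress-inducible Hsp70 pair and for the mitochondrial chaperonin pair, which that split placed with the inducible and the constitutive members. RefSeq sequences upstream of the transcription start (assembly GRCm38.p6) were matched for 6 of the 10 genes. The upstream 250 bases of Hspa1a (chr17:34972157-34972406, minus strand) and Hspa1b (chr17:34959239-34959488, minus strand) were identical at 247 of 250 positions. Capitals mark the short heat shock element, 2 inverted units of 5 bases searched as GAANNTTC or TTCNNGAA, which begins 104 bases before the start in both.
Hspa1a: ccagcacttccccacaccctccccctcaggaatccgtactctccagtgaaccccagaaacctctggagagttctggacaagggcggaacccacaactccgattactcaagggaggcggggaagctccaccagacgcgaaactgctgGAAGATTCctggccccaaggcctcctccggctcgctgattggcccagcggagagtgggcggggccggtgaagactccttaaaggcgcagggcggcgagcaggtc
Hspa1b: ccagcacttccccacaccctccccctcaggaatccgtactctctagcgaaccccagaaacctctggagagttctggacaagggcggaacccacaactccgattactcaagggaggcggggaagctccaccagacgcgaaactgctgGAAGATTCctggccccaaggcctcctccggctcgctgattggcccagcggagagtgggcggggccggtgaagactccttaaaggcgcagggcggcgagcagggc

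Hspd1 and Hspe1 lie head to head and share 215 bases between the start of Hspe1 and 1 of the 2 listed starts of Hspd1 (chr1:55087933-55088147, GRCm38.p6, printed on the plus strand, the strand of Hspe1). Capitals mark 18 bases that hold 2 overlapping matches to the long heat shock element of 3 units, searched as GAANNTTCNNGAA or TTCNNGAANNTTC. The run begins 89 bases before the start of Hspe1 and, read on the other strand, 144 bases before the start of Hspd1.
Hspd1 and Hspe1: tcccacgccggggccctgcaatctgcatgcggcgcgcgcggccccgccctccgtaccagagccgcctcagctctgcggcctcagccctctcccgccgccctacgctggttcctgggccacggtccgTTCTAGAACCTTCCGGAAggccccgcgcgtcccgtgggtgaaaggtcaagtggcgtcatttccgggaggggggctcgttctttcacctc

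Of all 32851 promoters in the RefSeq table, 0.466% hold the long element in the 250 bases before the start and 12.8% the short one. Each spelling is the reverse complement of itself or of its partner, so both strands were covered, and every long match also counts as a short one. The entries of Hspa5, of Dnajb1 and of the other start of Hspd1 held 0 matches of either form. Among the matched genes the long form was thus found only before Hspd1 and Hspe1, which were counted as constitutive. The inducible Hspa1 pair held the short form alone. A match is a description of letters, and no binding was measured here.

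Counting set limits on which members could be measured. The libraries held 10182464 to 11998296 counts in HLF KO and 8346335 to 9902102 in WT, so every HLF KO library was the deeper one. Hlf itself had 309, 399 and 431 counts in HLF KO libraries against 10768, 15982 and 10055 in WT libraries. The median gene with a single listed transcript totalled 79 counts, and the median gene with 2 of them totalled 3, so a 0 in a gene with several transcripts is not read as absence. Of the stem cell markers, Ly6a (Sca-1, with 6 listed transcripts) stood at 0 and Kit (with 2) had 1 count. By contrast, Gata2, Mecom and Procr were counted in every library. The stem cell markers summed to 831 to 993 CPM in HLF KO and 1046 to 1100 CPM in WT. CPM are counts scaled to a fixed total, using the library size after TMM scaling except where a raw total is named. The 9 granulocyte markers, all but S100a9 with counts, summed to 62.7 to 165 CPM in HLF KO and to 119 and 191 CPM in 2 of the WT libraries, but to 2389 CPM in WT library 3. Megakaryocyte and platelet markers summed to 714 to 918 CPM in HLF KO and 311 to 546 CPM in WT, T and NK cell markers to 285 to 499 CPM in HLF KO and 115 to 227 CPM in WT (Cd8a and Klrb1c at 0), and B cell markers to 34.0 to 53.5 CPM in HLF KO and 83.6 to 162 CPM in WT. The genotypes overlapped for the remaining marker lists. Erythroid markers summed to 122 to 160 CPM in HLF KO and 124 to 177 CPM in WT (Hba-a1, Hbb-b1 and Alas2 at 0). Macrophage markers summed to 13.4 to 54.3 CPM in HLF KO and 24.2 to 72.3 CPM in WT. Markers of endothelium and stroma and markers excluded by the sort overlapped as well. How often sums of other gene sets separate was not tested. The part of these markers' cells in the chaperone values was not tested.

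Several members also share sequence with other genes, so their counts are uncertain wherever the authors' counting could split shared reads. Of all stretches of 50 bases in the transcript, 73.2% recur in a transcript of another gene for Hspa8, 62.3% for Hspa1b, 60.3% for Hspa1a, 58.5% for Hsp90aa1, 44.8% for Hspd1 and 36.1% for Hspe1. The gene that shared most was the partner for the Hspa1 pair, Gm15459 for Hspa8, Gm12346 for Hsp90aa1 and the pseudogene Hspd1-ps3 for Hspd1. Hsp90ab1 (4.49%), Hspa9 (4.10%), Dnajb1 (0.407%) and Hspa5 (0.0%) were nearly free of such overlap.

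Hspa1a and Hspa1b encode the Hsp70 that cells make under stress, and both were close to 0 in all libraries but WT library 1. Hspa1a had 6, 0 and 13 counts in HLF KO libraries 1, 2 and 3, against 83, 3 and 0 counts in WT libraries 1, 2 and 3. Hspa1b had 9, 0 and 1 counts in HLF KO libraries, against 271, 0 and 1 counts in WT libraries. WT library 1 alone held 91.5% of the 387 counts of the pair, and the genotypes overlapped for both genes. Hspa1b stood at 32.5 CPM of that library's raw total (95% exact binomial interval 28.7 to 36.6, covering counting error only). In WT library 2 its count was 0, which allows up to 0.303 CPM (3 counts of the raw total). Neither gene passed the filter on low counts in the fit on all libraries, so neither was tested there. In bulk RNA, expression in few cells and low expression in many cannot be told apart.

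**Figure D1:**
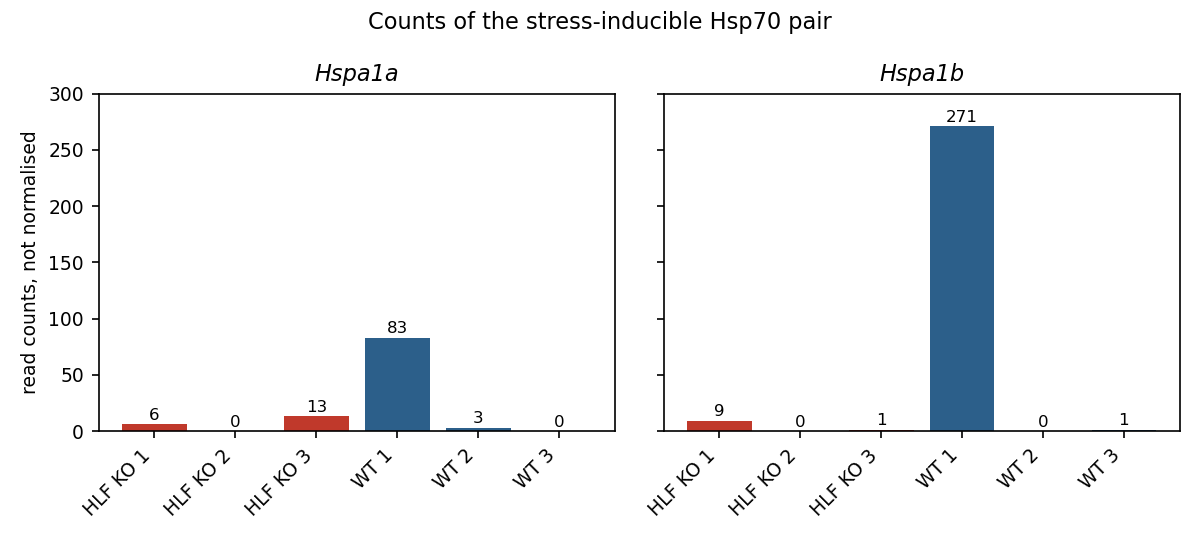
Bars give unnormalised read counts of Hspa1a (left) and Hspa1b (right) in the 3 HLF KO and 3 WT libraries. WT library 1 holds 83 and 271 counts, and no other library exceeds 13.

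The other inducible members were abundant in every library. Dnajb1 is the J-domain partner that delivers clients to cytosolic Hsp70. It stood at 165, 141 and 245 CPM in HLF KO libraries 1, 2 and 3, against 299.6, 218 and 201 CPM in WT libraries 1, 2 and 3. These CPM again use the library size after TMM scaling. WT library 1 was the highest and HLF KO library 2 the lowest, and HLF KO library 3 lay among the WT values. Dnajb1 averaged 183 ± 54.5 CPM in HLF KO and 239.5 ± 52.7 CPM in WT (SD, n = 3 each), a log2 fold change of -0.39 (SE 0.29, edgeR adjusted p = 0.78). Without WT library 1 it was -0.18, and without HLF KO library 3 it was -0.64.

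Hsp90aa1 encodes the stress-responsive cytosolic Hsp90. It stood at 1569, 2344 and 1699.8 CPM in HLF KO libraries, against 1986, 1367 and 1186 CPM in WT libraries. HLF KO library 2 was the highest and WT library 1 came next, above the other HLF KO libraries, so the genotypes overlapped. Its log2 fold change came to 0.31 (SE 0.23, edgeR adjusted p = 0.79). Without WT library 1 it was 0.57 (edgeR unadjusted p = 0.026, adjusted p = 0.49). It was 0.12 without HLF KO library 2 and 0.16 without WT library 3.

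Among the constitutive cytosolic chaperones the genotypes lay on top of each other. Hspa8, the everyday Hsp70 (Hsc70), stood at 3034, 3029.9 and 4032 CPM in HLF KO libraries, against 4346, 3417 and 3005 CPM in WT libraries. WT library 1 was the highest and WT library 3 the lowest, a log2 fold change of -0.09 (SE 0.19, edgeR adjusted p = 0.95). Hsp90ab1, the constitutive cytosolic Hsp90, stood at 2839, 3261 and 3719 CPM in HLF KO libraries, against 2941, 3586 and 3132 CPM in WT libraries. Its highest and its lowest value were both in HLF KO libraries, and its log2 fold change of 0.02 had the smallest error of the members (SE 0.17, edgeR adjusted p = 0.99).

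The mitochondrial members were likewise mixed between genotypes. Hspd1 (Hsp60, the chamber) stood at 715, 984 and 1291 CPM in HLF KO libraries, against 870.4, 922 and 725 CPM in WT libraries. Both the lowest and the highest value were in HLF KO libraries (log2 fold change 0.25, SE 0.23, edgeR adjusted p = 0.84), and the value was 0.03 without HLF KO library 3 and 0.45 without HLF KO library 1. Hspe1 (Hsp10, the lid) stood at 433, 492 and 686 CPM in HLF KO libraries, against 551, 574 and 415 CPM in WT libraries. WT library 3 was the lowest and HLF KO library 3 the highest, with a log2 fold change of 0.07 (SE 0.23, edgeR adjusted p = 0.97). The ratio of Hspd1 to Hspe1 CPM was 1.65, 2.00 and 1.88 in HLF KO libraries and 1.58, 1.61 and 1.75 in WT libraries. It varied less than either gene, which spanned 1.80-fold (Hspd1) and 1.65-fold (Hspe1) over the 6 libraries. The ratio of Hspa8 to Hspe1 CPM, at 5.88 to 7.89, also varied less than either gene (1.45-fold for Hspa8). A ratio steadier than its genes was thus not particular to the pair on the shared promoter shown above.

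Hspa9 (mortalin) pulls proteins into mitochondria and folds them there. It stood at 387, 361 and 398 CPM in HLF KO libraries, against 351, 379 and 276 CPM in WT libraries. WT library 3 was the lowest, and the HLF KO libraries differed among themselves by a coefficient of variation of 5.02%, against 15.9% for WT. The log2 fold change came to 0.19 (SE 0.21, edgeR adjusted p = 0.88), to 0.069 without WT library 3 and to 0.29 without WT library 2. Hspa5 (BiP), the Hsp70 of the endoplasmic reticulum, had 0 counts in all 6 libraries for both of its listed transcripts, so nothing can be said of its expression.

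**Figure D2:**
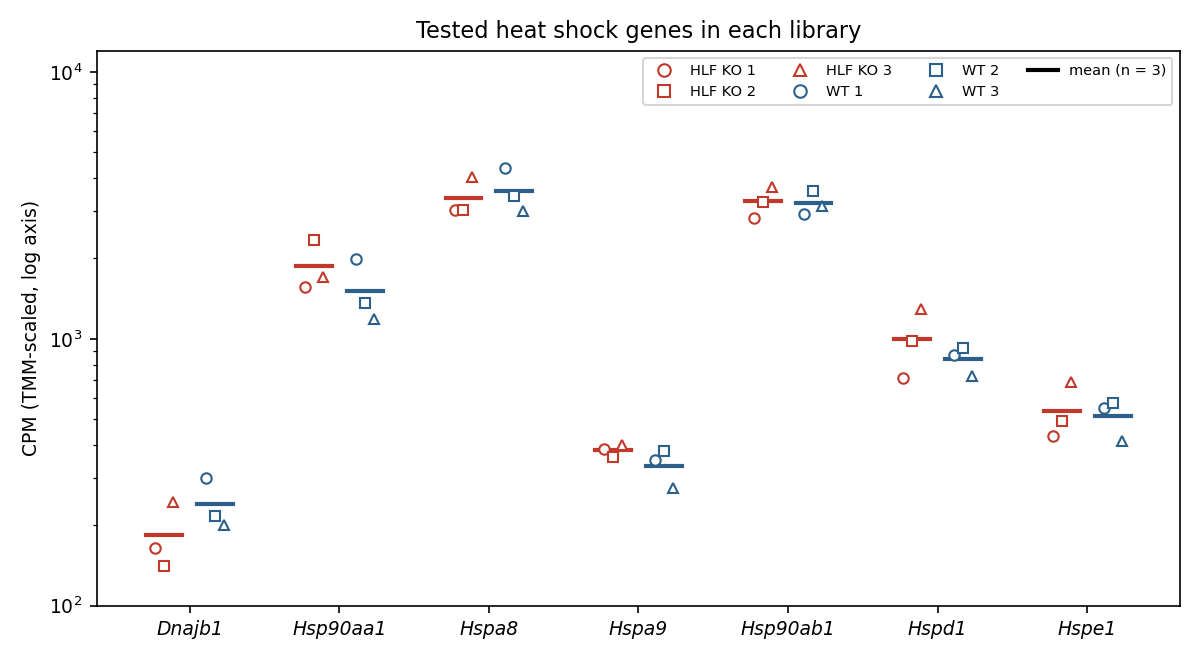
Each symbol is the CPM (log axis) of a gene in a library, with HLF KO left of WT for each gene, and bars mark the means of 3 libraries. The genotypes overlap for all 7 genes, from Dnajb1 at 141 to 299.6 CPM up to Hspa8 at 3005 to 4346 CPM.

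Of the 7 members tested, 0 passed edgeR's quasi-likelihood test at an adjusted p under 0.05, a threshold that 0.0098% of the 10204 tested genes passed (Hlf alone). At an unadjusted p under 0.05 the count was 0 of 7 in edgeR, against 7.27% of all genes, and 0 of 7 in DESeq2, against 10.3%. The genotypes did not overlap for 0 of 7 members, against 14.4% of all genes. A count of 0 among 7 lies near these shares and is no result about the members. The median log2 fold change was 0.07 over the tested members, 5 positive and 2 negative, and -0.05 over all tested genes. Fold changes had 95% intervals whose lower ends ran from 0.495 (Dnajb1) to 0.868 (Hsp90aa1) and whose upper ends ran from 1.18 (Dnajb1) to 1.76 (Hsp90aa1). With 3 libraries a genotype, the fold changes inside a gene's interval cannot be told apart.

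**Figure D3:**
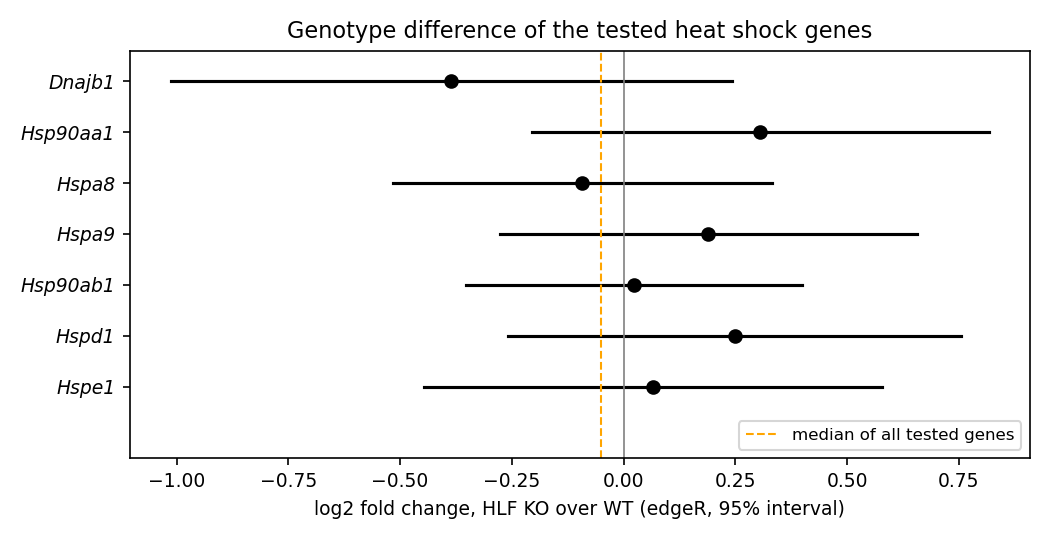
Points are edgeR log2 fold changes of HLF KO over WT for the 7 tested genes and lines are 95% intervals. Every interval includes 0, and points run from -0.39 (Dnajb1) to 0.31 (Hsp90aa1), with the dashed line at -0.05 for the median of all tested genes.

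Levels were ordered per length of transcript. Over the 6 libraries Hspa8 averaged 1453 ± 243 CPM per kilobase and Hsp90ab1 1288 ± 139, followed by Hspe1 at 678 ± 130, Hsp90aa1 at 516 ± 128 and Hspd1 at 379 ± 87.4 (SD, n = 6). Hspa9 at 118 ± 14.5 and Dnajb1 at 70.6 ± 19.0 CPM per kilobase came last. The order held between neighbours in 6 of 6 libraries below Hsp90ab1, below Hspd1 and below Hspa9, and in 5 of 6 for Hspa8 over Hsp90ab1, for Hspe1 over Hsp90aa1 and for Hsp90aa1 over Hspd1, whose means differ by no more than about the spread between libraries. Together the 10 genes took 0.955%, 1.11% and 1.16% of the counts in HLF KO libraries and 1.07%, 1.02% and 0.917% in WT libraries. Within a genotype the members' median coefficient of variation was 22.2% in HLF KO and 16.8% in WT. The 875 genes at or above the level of Dnajb1 had medians of 14.5% in HLF KO and 21.2% in WT.

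Inducible and constitutive members were then set against each other within each library, as a look at cell handling. Their ratio of summed CPM was 0.234, 0.306 and 0.192 in HLF KO libraries, against 0.257, 0.179 and 0.184 in WT libraries. HLF KO library 2 and WT library 1 were the highest, and the genotypes overlapped. Hsp90aa1 supplied most of the inducible sum. With Hsp90aa1 counted as constitutive the ratio was 0.0185, 0.0134 and 0.0208 in HLF KO libraries, against 0.0312, 0.0213 and 0.0231 in WT libraries, and every HLF KO library lay below every WT library, the closest pair at 0.0208 and 0.0213. That ratio is Dnajb1 with the few Hspa1 counts over the other members. Of the ratios between 2 genes at or above the level of Dnajb1, 18.7% also did not overlap. The separation is thus no result about the inducible members. The mean log2 difference of the ratio was 0.23 with the first split and -0.52 with the second, so its direction depends on where Hsp90aa1 is placed.

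Dnajb1 relative to its partner Hspa8 stood at 0.0543, 0.0464 and 0.0607 in HLF KO libraries, against 0.0689, 0.0637 and 0.0670 in WT libraries, and the genotypes did not overlap. This ratio was picked after its values were seen. Of the 21 ratios between tested members 3 (14.3%) did not overlap, all with Dnajb1 on top and lower in HLF KO, while 18.7% of the ratios between the 875 genes of at least that level did not overlap. The share among the members was thus near that of other gene pairs.

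**Figure D4:**
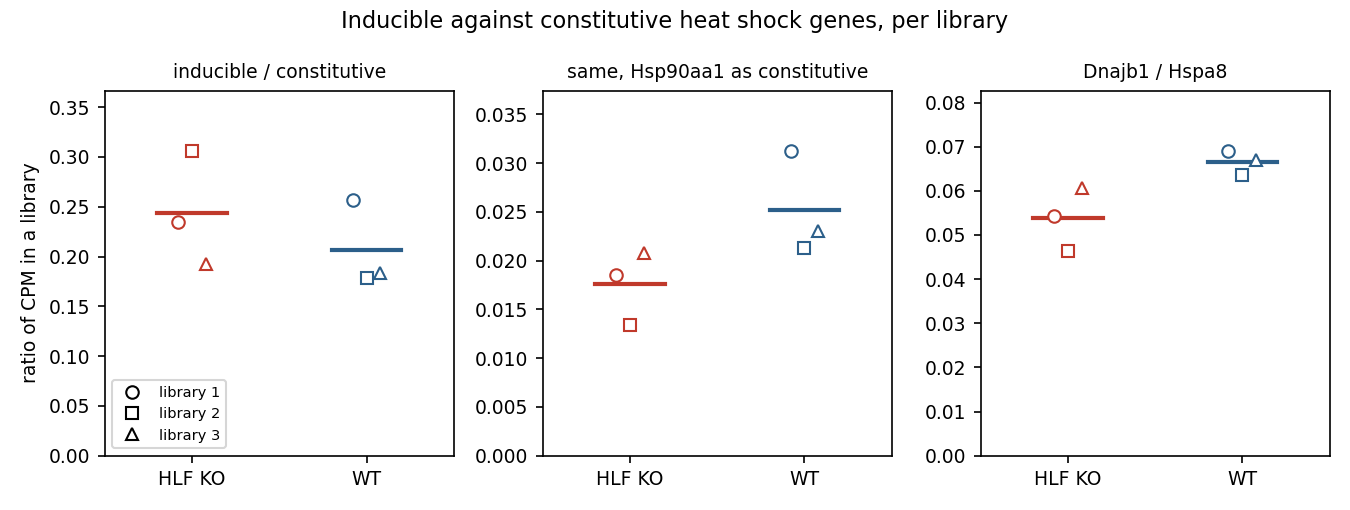
Symbols are ratios of CPM within a library, HLF KO left and WT right, and bars are means of 3 libraries. The genotypes overlap for the ratio of inducible to constitutive genes (left) and do not with Hsp90aa1 counted as constitutive (middle), while Dnajb1 over Hspa8 (right) is 0.0464 to 0.0607 in HLF KO and 0.0637 to 0.0689 in WT. Of the ratios between 2 genes at or above the level of Dnajb1, 18.7% do not overlap.

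WT library 1 was the highest library for Hspa1a, Hspa1b, Dnajb1 and Hspa8. It also had the fewest genes with a count, 10796, against 11341 to 12331 in the others. HLF KO library 3 was the highest for Hspa9, Hsp90ab1, Hspd1 and Hspe1. Of 17 immediate early genes, which cell isolation is known to raise, 15 had negative log2 fold changes, with a median of -1.05 (-0.73 without WT library 1) and 8 lower at an unadjusted p under 0.05 (background 4.65%; 5 without HLF KO library 2), and 0 passed when adjusted over all genes (edgeR). DESeq2 called 4 of them lower in HLF KO at an adjusted p under 0.05, a threshold that 1.18% of all genes passed: Zfp36 (DESeq2 adjusted p = 0.0031), Fos (0.017), Egr1 (0.043) and Fosb (0.046). WT library 1 was the highest for 8 of these 17 genes and for 24.3% of all tested genes. Fos, the best known of them, stood at 741, 650.0 and 487 CPM in HLF KO libraries and 1930, 1121 and 974 CPM in WT libraries. The list of HSF1 targets raised by heat also holds Hspa8, Hspd1 and Hspe1, which stand as constitutive in the ratios above, and the 4 inducible members. Of its 13 tested genes, the median log2 fold change was -0.02, with 6 positive and 7 negative. In edgeR with all 6 libraries 0 had an unadjusted p under 0.05 in either direction. At that threshold 1 was higher without WT library 1 and without WT library 3, and 1 was lower with no filter. The part of cell handling in any of these values was not tested.

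Beyond the members, 125 genes were listed for chaperones, their partners and their regulators, members included. Of these 99 were tested, 57 with positive and 42 with negative log2 fold changes, and 0 passed when adjusted over all genes (smallest edgeR adjusted p = 0.47). At an unadjusted p under 0.05, 3 had higher values in HLF KO (background 2.63%) and 0 lower ones (background 4.65%). The genotypes did not overlap for 11 genes higher (background 7.52%) and 5 lower (background 6.85%). In either direction 16.2% of the 99 did not overlap, against 14.4% of all genes, and 3.03% had an unadjusted p under 0.05, against 7.27%. The median log2 fold change was 0.10. Single genes of the lists were unsteady: of 58 genes examined by name beside the members, immediate early genes included, 41 moved by over 1.5 times or turned sign when some library was left out, 9 of them turning sign.

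The cytosolic chaperonin TRiC, an 8-subunit ring that folds actin and tubulin, held 5 of the 11. Tcp1, Cct4, Cct5, Cct7 and Cct8 had higher values in every HLF KO library than in any WT library, as did 7.52% of all tested genes. Cct8 stood at 269, 319 and 388 CPM in HLF KO libraries, against 152, 228 and 233 CPM in WT libraries (log2 fold change 0.67, SE 0.26, unadjusted p = 0.023 and adjusted p = 0.63 by edgeR, and 0.51 without WT library 1). Cct4 stood at 439, 467 and 505 CPM in HLF KO libraries, against 239, 337 and 427 CPM in WT libraries (0.49, SE 0.24). Of the 8 subunits 7 were positive, from -0.11 (Cct2) to 0.67, with a median of 0.24, while 47.2% of all tested genes were positive. The subunits were set apart from prefoldin after the values were seen, so this count is a description only. The list as first drawn up joined both, with 9 of 13 tested genes positive and a median of 0.22. Summed over subunits, HLF KO libraries held 2897, 3394 and 3274 CPM and WT libraries 2783, 2657 and 2673 CPM. Of 5 tested subunits of prefoldin, which hands clients to TRiC, 2 were positive, with Pfdn5 at -0.50 (SE 0.31) and Pfdn2 at -0.81 (SE 0.52).

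Among the wider Hsp70 family, 9 of 15 genes were tested and 1 had a higher value at an unadjusted p under 0.05 (background 2.63%). The count was 0 under the replicate block and without HLF KO library 1, HLF KO library 2, WT library 1 or WT library 2. The gene was Hspa4l, an Hsp110-type exchange factor, at 114, 140.1 and 92.5 CPM in HLF KO libraries, against 44.8, 63.5 and 85.2 CPM in WT libraries (log2 fold change 0.84, SE 0.37, edgeR adjusted p = 0.67). Its relative Hspa4 stood at 398, 412 and 412 CPM in HLF KO libraries, against 214, 335 and 349.6 CPM in WT libraries (0.44, SE 0.24). Hsph1, the heat-inducible gene of that type, stood at -0.22 (SE 0.23).

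Helpers of Hsp70 and Hsp90 went both ways. Sugt1, a co-chaperone that ties Hsp90 to kinetochore assembly, stood at 48.4, 62.6 and 94.2 CPM in HLF KO libraries, against 18.4, 19.97 and 30.4 CPM in WT libraries. The groups did not overlap, and its log2 fold change came to 1.58 (SE 0.48, unadjusted p = 0.0066 and adjusted p = 0.47 by edgeR), the smallest p of all 99 genes. Chordc1, Ppp5c and Fkbp4, which also bind Hsp90, stood at 0.53 (SE 0.33), 0.42 (SE 0.43) and 0.32 (SE 0.25), with Ppp5c at 0.083 without HLF KO library 3. In all 10 of 14 tested Hsp90 co-chaperones were positive, with a median of 0.24. Of 10 tested exchange factors and cofactors of Hsp70, 5 were positive. St13 (Hip), which steadies Hsp70 on its client, stood at 0.62 (SE 0.31), Hspbp1 at 0.55 (SE 0.35), Bag2 at -1.14 (SE 0.67, and 0.04 without WT library 2) and the mitochondrial factor Grpel1 at -0.86 (SE 0.57, and -0.39 without WT library 1). Of 12 tested J-domain genes 6 were positive, with Dnajc8 at 0.64 (SE 0.31), Dnaja2 at 0.46 (SE 0.26) and Dnajc2 at 0.34 (SE 0.28).

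In the organelles the picture was as mixed. Of 15 tested chaperones of the endoplasmic reticulum 8 were positive, with a median of 0.01. Hsp90b1 (Grp94), the Hsp90 of that compartment, stood at 832, 859 and 967 CPM in HLF KO libraries, against 863, 964 and 1690 CPM in WT libraries, with WT library 3 far above the rest. The log2 fold change came to -0.40 (SE 0.25, edgeR adjusted p = 0.74), and to -0.04 without WT library 3, the library with granulocyte markers at 2389 CPM, whose part was not tested. The disulfide isomerase P4hb stood at 0.44 (SE 0.26), Pdia4 at -0.64 (SE 0.45, and -0.09 without WT library 3) and Creld2 at -0.95 (SE 0.66, and -0.36 without WT library 1). Of 10 tested regulators of the unfolded protein response 8 were negative, with a median of -0.55. In edgeR with all 6 libraries 0 had an unadjusted p under 0.05. At that threshold 1 was lower in DESeq2 (10.3% of all genes in either direction), in limma-voom, with no filter, with the replicate block and after thinning. Without HLF KO library 3 or without WT library 2, 2 were lower, and without WT library 3, 1 was higher. The stress pseudokinase Trib3 had 0, 0 and 15 counts in HLF KO libraries against 37, 66 and 77 in WT libraries. Ppp1r15a, which reverses the stress block on translation, stood at -0.40 (SE 0.26), the sensor Atf6 at 0.58 (SE 0.37) and Ddit3 (CHOP) at -1.46 (SE 1.03, and 0.24 without WT library 1).

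Of 12 tested mitochondrial chaperones and proteases 7 were positive, with a median of 0.13, the protease Lonp1 at -0.57 (SE 0.38) and the J-domain gene Dnajc15 at 0.52 (SE 0.55). The Hsp90 family had Trap1, the mitochondrial form, at -0.11 (SE 0.31), and a median of -0.05 over 4 genes. Hsf1 itself stood at 105, 143 and 102 CPM in HLF KO libraries, against 101, 153 and 93.9 CPM in WT libraries (log2 fold change 0.01, SE 0.32). The levels overlapped fully. Hsf2 stood at 0.36 (SE 0.66) and Hsbp1, a binder of HSF1, at 0.16 (SE 0.26).

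**Figure D5:**
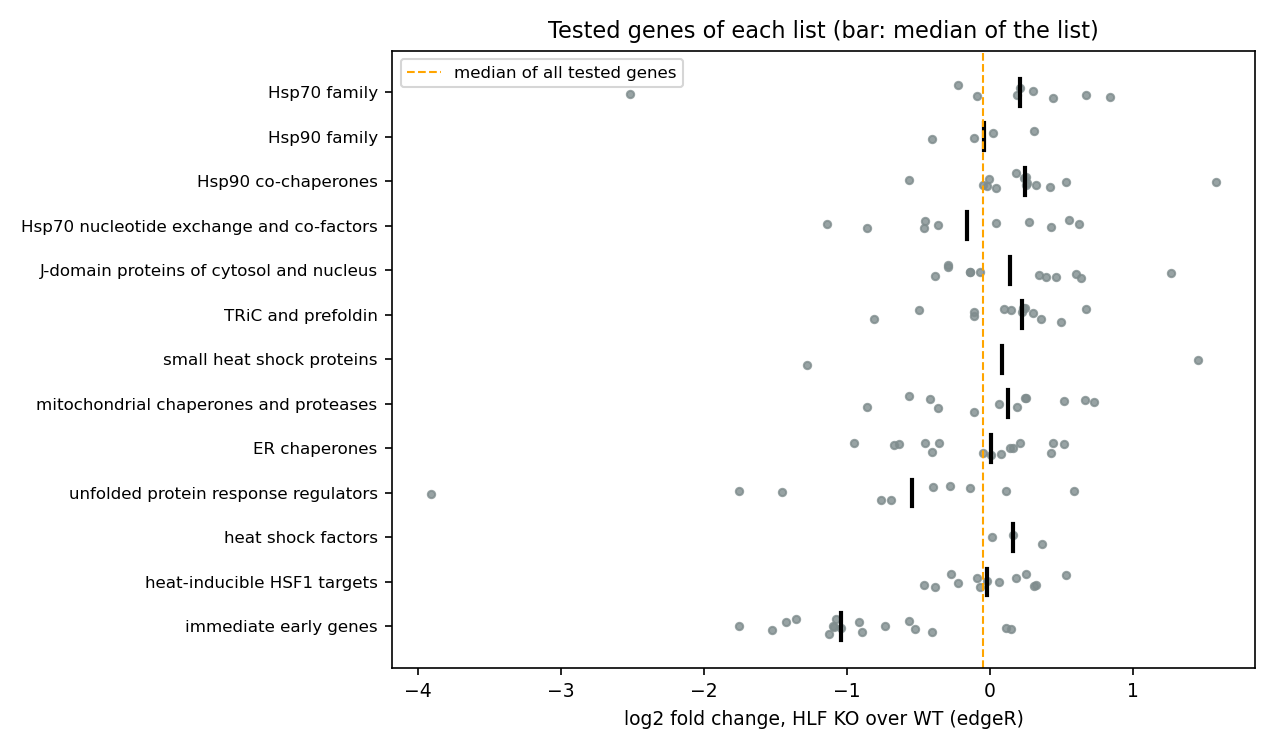
Points are edgeR log2 fold changes of HLF KO over WT for the tested genes of each list, black bars are list medians, and the dashed line is the median of all tested genes (-0.05). Medians of the chaperone lists lie between -0.16 and 0.24, that of unfolded protein response regulators at -0.55 and that of immediate early genes at -1.05.

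Genes whose level followed the members across the 6 libraries were found by Pearson's r of log2 CPM with the members' mean standardised profile, among 6604 candidates of at least 4 log2 CPM. The 5 closest to the mean of the 2 tested inducible members were Dcaf10 (r = 0.992), Phpt1 (0.990), Wasl (0.987), Mbnl3 (0.981) and Zfp397 (0.975). In HLF KO library 2 Dnajb1 was at its lowest and Hsp90aa1 at its highest, so that mean joins 2 genes that differed there. The 5 closest to the 5 tested constitutive members were Lrrk1 (r = 0.980), Pmpcb (0.977), Gata2 (0.977), Akap8 (0.973) and Ska2 (0.967). With so few points and so many candidates such values are a description only. The constitutive profile was highest in HLF KO library 3 and lowest in WT library 3, and the inducible one was highest in WT library 1 and lowest in WT library 3.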

How the data were processed

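The files deposited by the authors hold raw counts of reads for each RefSeq transcript in each of 6 libraries. Per the labels' protocols, libraries were made with an Illumina TruSeq kit. TopHat and the build mm9 are named, per the submitters' processing notes. How reads were counted (tool, annotation release, strand, shared reads) is not given in the sources used. Transcripts (30858) were named from RefSeq (30363) or GENCODE (179) and counts were summed per gene, giving 23574 features, 316 of them left as accessions.

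HLF KO was compared with WT over 10204 genes that passed filterByExpr (minimum count 10, minimum total 15), with edgeR 4.0.16 (TMM, robust quasi-likelihood F test, no covariates, Benjamini-Hochberg adjustment over all tested genes) in R 4.3.3. Standard errors came from the F statistic, and a prior count of 2 went into log2 CPM. The fit was tested on simulated data. Alternatives were RLE size factors, DESeq2 1.42.0, limma-voom (limma 3.58.1), no filter, genes with 1 listed transcript, thinning to the smallest library, a replicate block and leaving out each library. Transcript lengths and shared stretches came from GENCODE M21. No coordinates of the files' build are printed.

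The members, lists and tests were chosen with earlier results of these data known. Named genes are the members, Hlf, in each list the 4 tested genes with the lowest p, and the 5 closest by correlation per profile. Genes picked outside that rule, after their values were seen, are Tcp1, Cct5, Cct7, Cct2, the marker genes, and those given for counts in 1 or 2 libraries.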

Additional observations from a re-analysis of the deposited data

How the results depend on the processing

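Members passing the adjusted threshold numbered 0 under every alternative run. Over all genes, edgeR called 1 gene, DESeq2 120, edgeR with no filter 9 and the replicate block 2, and leaving out a library gave 1 to 3 (3 without WT library 1). Same-numbered libraries did not deviate together (r = -0.01, -0.02 and 0.02 over genes), so the numbers were not taken as pairs, and only 1 of 3 HLF KO libraries correlated best with its own number. The replicate block changed no member's call. Signs turned when a library was left out for Hspa8 (-0.24 to 0.083), Hsp90ab1 (-0.071 to 0.13) and Hspe1 (-0.14 to 0.21). The mean log2 difference of the inducible to constitutive ratio, 0.23, was -0.52 with Hsp90aa1 as constitutive, -0.69 as a mean of log2 CPM per gene, and 0.06 to 0.40 with a library left out. The value for Hlf ran from -5.46 to -5.17 with a library left out. With no filter on low counts, Hspa1a was tested as well, at -2.65 (edgeR adjusted p = 0.70). Hspa1b then stood at -5.18 (edgeR unadjusted p = 0.031, adjusted p = 0.58). WT library 1 held 79.0% of the Hspa1a counts and 96.1% of the Hspa1b counts. Hspa1a was also tested without HLF KO library 1 (-2.65), HLF KO library 2 (-2.09), WT library 2 (-3.20) and WT library 3 (-3.25). The cause of these shifts was not tested.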

Other observations

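Several chaperone genes outside the tests had most of their counts in 1 or 2 libraries. Hspb1, which encodes the small heat shock protein Hsp27, had 0, 24 and 0 counts in HLF KO libraries 1, 2 and 3 and 0 in each WT library. Cryab, the small heat shock protein alpha-B crystallin, had 133, 4 and 26 counts in HLF KO libraries and 0, 0 and 7 in WT libraries. Chac1, a target of the unfolded protein response, had 0, 0 and 1 counts in HLF KO libraries and 24, 0 and 114 in WT libraries. Hsf5, a relative of Hsf1, had 0, 0 and 30 counts in HLF KO libraries and 0 in each WT library.

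Hspa1l, the Hsp70 relative known from testis that neighbours Hspa1a, had 53, 21 and 18 counts in HLF KO libraries and 45, 367 and 39 in WT libraries. Here WT library 2 stood apart, and not WT library 1 as for Hspa1a and Hspa1b. The log2 fold change came to -2.52 (SE 1.19, edgeR adjusted p = 0.68), and to -0.84 without WT library 2. Hspb6, another small heat shock protein, was also highest in WT library 2, at 63.3 CPM, against 7.72 to 18.6 CPM in HLF KO and 12.2 and 16.9 CPM in the other WT libraries. Its log2 fold change was -1.28 (SE 0.78), and -0.19 without WT library 2. Of the 2 tested small heat shock proteins, the other, Hspb11, went the opposite way and was lowest in WT library 2. Hspb11 stood at 16.6, 12.9 and 30.4 CPM in HLF KO libraries, against 15.9, 0.104 and 5.87 CPM in WT libraries, and the genotypes overlapped. The log2 fold change of Hspb11 was 1.45 (edgeR adjusted p = 0.81), and 0.88 without WT library 2.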
